A study of Papio anubis with 588 samples.

Results

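The RNA of adipose tissue was compared in 95 captive olive baboons (Papio anubis) between a low-cholesterol, low-fat diet (LCLF), sampled at 0 years, and a diet rich in cholesterol and fat (HCHF), sampled after 2 years on it. The members are the 190 adipose libraries of the animals that had a library on each diet, chosen by tissue and time label, out of 194 adipose libraries and 570 libraries of liver, muscle and adipose tissue that passed the authors' quality control. Every animal went from LCLF to HCHF, so the diet and 2 years of age and calendar time cannot be told apart, and animals kept on LCLF were not analysed here. The labels give biopsies of frozen tissue from captive animals and no sex, no age and no adipose depot.

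Adipocytes hold fat in a droplet, build fatty acids from glucose, release them by lipolysis, and secrete hormones such as leptin and adiponectin. Between them lie vessels, fibroblasts and progenitors that make collagen, and macrophages, which can gather around dying fat cells and take up lipid and cholesterol. Biopsies of visceral fat can also carry mesothelium, the cell layer that lines the abdominal cavity, and any biopsy carries blood.

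The summed level of 12 adipocyte markers, in CPM (a gene's count scaled to its library's total count), was 2629 to 35761 CPM (median 15667) in the LCLF libraries and 934 to 26576 CPM (median 15249) in the HCHF libraries, against a median of 203 CPM in 182 liver libraries and 1492 CPM in 194 muscle libraries. By these medians the tissue label held, while the lowest HCHF library, at 934 CPM, lay below the median of muscle. The total count, in M (mega-counts), ran from 6.507 to 31.09 M in the LCLF libraries (median 18.24 M) and from 6.551 to 36.8 M in the HCHF libraries (median 20.06 M). The libraries came from 2 sequencing batches, with 16 pairs in the shallower batch 1 (medians 9.803 and 11.14 M) and 79 in batch 2 (18.56 and 20.5 M), and an animal's libraries were always in the same batch. The labels give the batches' sizes but not which animal belongs to which, so membership was read from a gap in the expression data. A set of 4 libraries from 3 animals stood apart from the others, and 6 named genes lost their call without these animals, FABP5, ADIPOQ, PNPLA2, NPAS2, AGPAT2 and STEAP4. Levels of single genes below are CPM of the TMM-scaled library size, changes are log2 fold changes of HCHF over LCLF from the model with the animal as a block, with their SE over 95 animals, and a gene is said to rise or fall where its Benjamini-Hochberg adjusted p in edgeR's quasi-likelihood test was under 0.05. A number of animals given beside a change counts those in which the gene moved in that direction. Counts, medians and calls for batch 1 alone or batch 2 alone come from limma-voom with the animal block in place of edgeR.

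Of 16827 genes tested, 3143 rose (18.7%) and 3339 fell (19.8%), so a gene list needs to be read against shares near these. Most changes were small, with a median size of 0.16 among the genes that passed. A change of at least 0.5 was found for 303 genes that rose (1.8%) and 117 that fell (0.695%), and of at least 1 for 21 and 13. The ranges of the diets overlapped in all 16827 genes, and the most regular genes moved one way in 88.4% of animals upward and 90.5% downward. The median over all genes tested was -0.00, which is the level that list medians below stand beside.

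**Figure D1:**
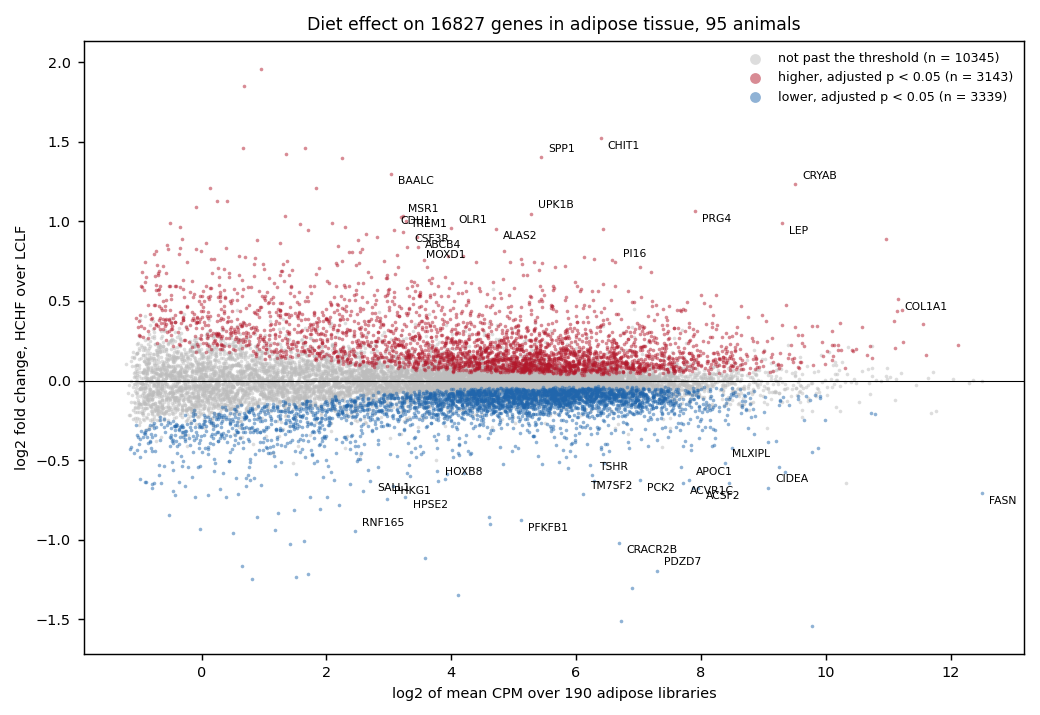
Each point is 1 of 16827 genes, with the log2 of its mean CPM over 190 adipose libraries on the x axis and its log2 fold change of HCHF over LCLF on the y axis. The 3143 genes that rose are red, the 3339 that fell are blue, and CHIT1, SPP1 and CRYAB stand at the top among abundant genes while PDZD7, CRACR2B and FASN stand below.

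Genes of macrophages, the tissue's resident phagocytes, rose in nearly every case. Of 15 markers tested, 14 rose and 0 fell (median 0.53), among them the scavenger receptor gene MSR1, the endosomal marker CD68 at 0.78 ± 0.13 and the haemoglobin scavenger receptor gene CD163 at 0.59 ± 0.10. The member that did not pass was the scavenger receptor gene MARCO, named for that (0.25 ± 0.25, adjusted p = 0.46). The mean change of the list was above 0 in 66 of 95 animals. Its median per animal was 0.06 in batch 1 and 0.58 in batch 2. The median over the list's members was 0.29 in batch 1 alone and 0.56 in batch 2 alone. A difference between the batches was not tested for lists. The summed level of the macrophage markers was 186 to 3776 CPM (median 1197) in the LCLF libraries and 443 to 3954 CPM (median 1582) in the HCHF libraries. In a bulk sample more cells of a type and more RNA per cell cannot be told apart.

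The largest rise of a gene with a mean of at least 5 CPM was that of CHIT1, chitotriosidase, an enzyme that lipid-laden macrophages secrete. Its level was 0.131 to 251 CPM (median 14.5) on LCLF and 0.866 to 1714 CPM (median 35.1) on HCHF. The HCHF libraries reached far above the highest LCLF library, while their lower part lay within the LCLF range. The change was 1.52 ± 0.24 (2.87-fold, adjusted p = 2.73e-07 by edgeR), with a higher level in 73 of 95 animals. The mean within-animal change of log2 CPM was 0.54 in batch 1 and 1.74 in batch 2, a difference that did not pass (adjusted p = 0.998 by limma).

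SPP1, which encodes osteopontin, a secreted matrix protein and cytokine of lipid-associated macrophages, had 0.815 to 134 CPM (median 7.06) on LCLF and 0.988 to 2449 CPM (median 16.5) on HCHF. Its HCHF libraries spread over a wider range and their top lay above every LCLF library. It rose by 1.41 ± 0.20 (adjusted p = 2.26e-08 by edgeR) and was higher in 73 animals. MSR1, whose receptor takes up modified lipoproteins, had 0.703 to 14.5 CPM (median 5.44) on LCLF and 0.918 to 112 CPM (median 8.97) on HCHF, a rise of 1.03 ± 0.13 seen in 74 animals. Further receptors stood among the 15 largest rises of fully named genes that averaged 5 CPM or more and were higher in 70% of animals or more. OLR1, the receptor for oxidised low-density lipoprotein, rose by 0.96 ± 0.18 and was higher in 71 animals, and TREM1, which amplifies inflammatory signals on myeloid cells, rose by 1.03 ± 0.16 and was higher in 72.

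The lipid-associated macrophage list was mixed. Of 17 members tested, 10 rose and 3 fell (median 0.25). Those that rose included the lipid receptor gene TREM2 at 0.63 ± 0.12, the matrix protease gene MMP9 at 0.94 ± 0.16 and the transmembrane glycoprotein gene GPNMB at 0.41 ± 0.08. The 3 that fell were CHI3L1, a chitinase-like protein, at -0.63 ± 0.14, the apolipoprotein gene APOC1 at -0.63 ± 0.16, and the fatty acid carrier gene FABP5 at -0.23 ± 0.09. Without the animals whose libraries stood apart FABP5 did not pass (adjusted p = 0.0773). APOC1 was lower in 67 of 95 animals. Per animal, the mean change of the whole list had a median of 0.07 in batch 1 and 0.29 in batch 2.

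Of 34 lysosome genes, 22 rose and 2 fell, a share of risers of 64.7% against 18.7% of all genes, with small changes (median 0.12). Per animal, the mean change of this list had a median of 0.01 in batch 1 and 0.08 in batch 2. The proteases cathepsin S and cathepsin B led, CTSS at 0.54 ± 0.08 and CTSB at 0.34 ± 0.06. Both genes that fell encode subunits of the membrane part of the proton pump, ATP6V0B (-0.18 ± 0.03) and ATP6V0A1 (-0.09 ± 0.02). In the list of sterol efflux genes and targets of the oxysterol receptor LXR, 5 of 14 tested genes rose and 3 fell, or 2 rose without the animal block. NCEH1, which frees cholesterol from its stored esters, rose by 0.52 ± 0.06, and SOAT1, which makes those esters, fell by 0.39 ± 0.06. The exporter genes ABCA1 and ABCG1 stood at 0.15 ± 0.06 and -0.11 ± 0.10, the latter short of the threshold (adjusted p = 0.418).

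**Figure D2:**
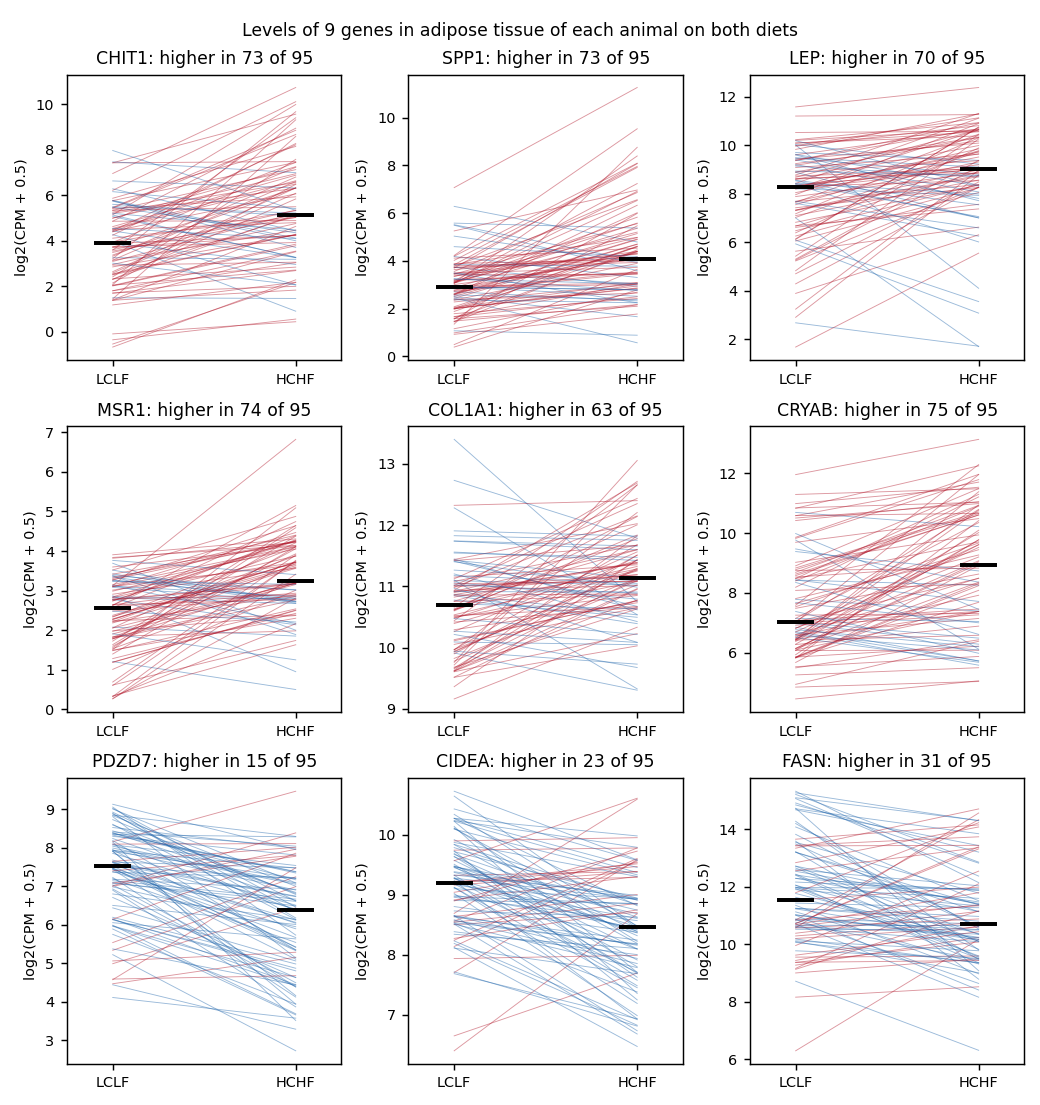
Each panel shows 1 gene, with log2(CPM + 0.5) on the y axis and a line joining the LCLF and HCHF library of each of 95 animals, red where HCHF was higher and blue where it was lower. Black bars are medians, which lie higher on HCHF for CHIT1, SPP1, LEP, MSR1, COL1A1 and CRYAB and lower for PDZD7, CIDEA and FASN, with lines crossing in every panel.

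Genes of circulating myeloid cells rose too. Of 8 monocyte and neutrophil markers, 7 rose and 0 fell (median 0.55). CSF3R, the receptor for the growth factor of neutrophils, had 0.452 to 32.9 CPM (median 4.93) on LCLF and 0.946 to 66.9 CPM (median 9.81) on HCHF, a rise of 0.84 ± 0.15. VCAN, the proteoglycan versican made by monocytes and fibroblasts, rose by 0.52 ± 0.10. Without the animal block 3 of the 8 markers passed. Of 5 mast cell markers, 4 rose and 1 fell, with CPA3, the mast cell carboxypeptidase, at 0.66 ± 0.12 and higher in 76 animals. MS4A2, a chain of the receptor for IgE, was at 0.83 ± 0.15, and the transcription factor gene GATA2 at -0.21 ± 0.04. Per animal, the mean change of the mast cell list had a median of -0.20 in batch 1 and 0.30 in batch 2.

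The shares of lymphocyte markers that rose lay near or below the 18.7% of all genes. Among 15 T and NK cell markers, 2 rose and 0 fell, a share of risers of 13.3%. CD4, which monocytes and macrophages also express, was at 0.52 ± 0.11, CD3G at 0.22 ± 0.07, and CD8A did not pass (0.15 ± 0.08, adjusted p = 0.135). Of 12 B and plasma cell markers, 2 rose and 0 fell, a share of risers of 16.7%, MS4A1 at 0.50 ± 0.16 and BANK1 at 0.50 ± 0.09. The dendritic cell markers CD1C (0.25 ± 0.07) and FCER1A (0.41 ± 0.12) passed, among 6 tested.

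Inflammatory genes moved unevenly. Of 17 chemokine genes, 6 rose and 1 fell, or 2 rose without the animal block. CCL18, a chemokine of lipid-handling macrophages, rose by 1.46 ± 0.24 from a low level, with 0 to 5.25 CPM (median 0.277) on LCLF and 0 to 58.4 CPM (median 0.73) on HCHF. Libraries without a count occurred on each diet. CCL2, the monocyte attractant, rose by 0.34 ± 0.12, but did not pass by limma-voom (adjusted p = 0.0822). IL6 did not pass (0.05 ± 0.16, adjusted p = 0.816). Of 18 genes of inflammatory signalling, 10 rose and 1 fell, led by IL18 at 0.53 ± 0.09 and the Toll-like receptor gene TLR2 at 0.54 ± 0.10, with NFKB2 at -0.12 ± 0.04 the member that fell.

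The complement and coagulation list had 16 genes that rose and 3 that fell, of 22 tested (median 0.29). The receptors for the complement fragments that attract myeloid cells led it, C3AR1 at 0.74 ± 0.13 and C5AR1 at 0.69 ± 0.12. The members that fell were C7 at -0.25 ± 0.08, the anticoagulant receptor gene THBD at -0.20 ± 0.06 and VWF, the von Willebrand factor of endothelium, at -0.11 ± 0.04. The antigen presentation list had 6 genes that rose and 0 that fell, of 14 tested, or 3 rose without the animal block, with CD86, a costimulatory ligand, at 0.56 ± 0.11. Among 23 interferon-stimulated genes 5 rose and 0 fell, a share of 21.7% that lies near the 18.7% of all genes, and 2 rose without the animal block and 3 in batch 2 alone.

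The matrix and the cells that make it formed the second broad rise. Of 21 collagen chain genes, 13 rose and 0 fell (median 0.16), and the mean change of the list was above 0 in 75 of 95 animals. COL1A1, a chain of the main fibrillar collagen, had 572 to 10814 CPM (median 1649) on LCLF and 632 to 8516 CPM (median 2244) on HCHF. The highest library of all was an LCLF library, and the ranges overlapped almost throughout. Within animals the gene rose by 0.51 ± 0.10 (adjusted p = 3.2e-05 by edgeR) and was higher in 63. COL1A2 rose by 0.45 ± 0.08 in 73 animals, COL3A1 by 0.43 ± 0.08 in 72, and COL6A6, a chain of a microfibrillar collagen, by 0.58 ± 0.09. COL6A3, which also yields the hormone endotrophin, rose by 0.24 ± 0.05.

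Other matrix genes rose as well. Among 26 glycoprotein and proteoglycan genes, 17 rose and 0 fell, among them the small proteoglycan genes DCN at 0.22 ± 0.04 (higher in 72 animals) and OGN at 0.31 ± 0.06. Of 27 remodelling genes, 15 rose and 2 fell. MMP7, the protease matrilysin, had the largest change of these, 1.96 ± 0.27, from very low levels of 0 to 4.67 CPM (median 0.192) on LCLF and 0 to 120.5 CPM (median 0.619) on HCHF, and was higher in 64 animals. The protease inhibitor gene TIMP2 rose by 0.19 ± 0.03 while TIMP4, an inhibitor abundant in fat, fell by 0.42 ± 0.09. In the list of transforming growth factor beta signalling, 12 of 26 tested genes rose and 1 fell. TGFB1, the growth factor itself, rose by 0.25 ± 0.05, and FST, an antagonist of activin, fell by 0.41 ± 0.09.

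The mean change of fibroblast and adipose progenitor markers was above 0 in 81 of 95 animals. Of 17 members, 11 rose and 0 fell (median 0.29). PI16, a marker of the early progenitors around vessels, had 8.47 to 271 CPM (median 55.8) on LCLF and 15.3 to 546 CPM (median 92.4) on HCHF. Its HCHF libraries were shifted upward within a shared range, and it rose by 0.74 ± 0.14 in 66 animals. SEMA3C, a secreted guidance protein, rose by 0.71 ± 0.07 and CD55, a complement regulator, by 0.29 ± 0.05. The list's summed level was 3695 to 11331 CPM (median 7045) in the LCLF libraries and 4187 to 12449 CPM (median 8329.9) in the HCHF libraries. The median of its mean change per animal was 0.25 in batch 1 and 0.29 in batch 2.

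Markers of cells that a biopsy can carry along also rose. Of 11 mesothelial markers, 9 rose and 0 fell (median 0.44), with a summed level of 41.7 to 4236 CPM (median 1181) in the LCLF libraries and 255 to 4851 CPM (median 1499.8) in the HCHF libraries. UPK1B, a uroplakin of the mesothelial surface, had 0 to 109.9 CPM (median 21.1) on LCLF and 5.24 to 154 CPM (median 43.3) on HCHF and rose by 1.05 ± 0.16. PRG4, the lubricant protein lubricin, had 5.48 to 827 CPM (median 113) on LCLF and 19.6 to 2098 CPM (median 253) on HCHF and rose by 1.07 ± 0.16. BNC1, a mesothelial transcription factor gene, rose by 0.73 ± 0.13, and MSLN, the defining marker mesothelin, was not analysed here. Without the animal block 4 of these markers rose, and with the adipose libraries that the authors' quality control left out 5.

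All 4 tested red cell markers rose (median 0.92), and the summed level of the 7 in the table was 101 to 7360.2 CPM (median 851) in the LCLF libraries and 133 to 30579.5 CPM (median 1606) in the HCHF libraries. ALAS2, the red cell enzyme of haem synthesis, had 0.572 to 93.3 CPM (median 10) on LCLF and 1.44 to 411 CPM (median 17.6) on HCHF, a rise of 0.95 ± 0.19 in 67 animals. HBB, a globin with near-identical copies, rose by 0.89 ± 0.18. Of the defining red cell genes, AHSP had no count in 15 of 190 libraries. Skeletal muscle markers summed to a median of 86.4 CPM on LCLF and 96.3 CPM on HCHF, with 1 LCLF library at 23540 CPM, and 0 of 5 tested passed, while without the animal block 4 of them fell. Liver markers stayed at or below 2681 CPM in every paired library, and 1 of 4 tested rose, SERPINA1, the gene of alpha-1 antitrypsin, at 0.55 ± 0.15. The part of mesothelium and blood in the rises of immune and matrix genes was not tested.

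Genes that differ between fat depots were mostly lower where they passed. Of 19 depot identity transcription factor genes, 4 rose and 9 fell (median -0.11), while 2 rose without the animal block and 1 with the libraries left out by quality control. HOXB8, a positional homeobox gene, had 5.1 to 45 CPM (median 15.5) on LCLF and 2.43 to 38.2 CPM (median 10.7) on HCHF, and fell by 0.63 ± 0.10 in 71 animals. HOXB6 fell by 0.45 ± 0.05 and was lower in 79. WT1 and GATA6, which mark visceral fat and WT1 also mesothelium, rose by 0.44 ± 0.13 and 0.39 ± 0.10, and NR2F1 and HOXC4 by 0.14 ± 0.05 and 0.15 ± 0.04. WT1 did not pass without the animal block (adjusted p = 0.0667). Whether the same site was sampled each time is not given in the labels.

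The adipocyte markers as a set stayed near the median of all genes. Of 12 tested, 0 rose and 3 fell (median -0.04), a share of 25% that fell against 19.8% of all genes. Those were CIDEA, a protein of the lipid droplet surface, LGALS12, a galectin of fat cells (-0.34 ± 0.09), and ADIPOQ, the hormone adiponectin. CIDEA had 83.7 to 1696 CPM (median 588) on LCLF and 88 to 1564 CPM (median 354) on HCHF, and its fall by 0.67 ± 0.11 was seen in 72 of 95 animals. The droplet coat gene PLIN1 (0.08 ± 0.11), the master regulator PPARG (-0.07 ± 0.07), the fatty acid carrier FABP4 (-0.01 ± 0.09) and the lipase LPL (0.04 ± 0.11) did not pass.

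The main adipocyte hormones moved in opposite directions. LEP, leptin, had 2.69 to 3073 CPM (median 311) on LCLF and 2.73 to 5356 CPM (median 525) on HCHF. Libraries with very low leptin occurred on each diet, and the highest library of each diet, the top pair of all, came from the same animal. The gene rose by 0.99 ± 0.22 (adjusted p = 0.000186 by edgeR), was higher in 70 of 95 animals, and changed by 0.87 in batch 1 and 1.00 in batch 2. ADIPOQ had 124 to 2746 CPM (median 745) on LCLF and 60.5 to 3023 CPM (median 636) on HCHF and fell by 0.25 ± 0.09 (adjusted p = 0.0222), lower in 56 animals. It did not pass without the animals whose libraries stood apart (adjusted p = 0.053). In the list of 14 adipokines, 3 rose and 3 fell, shares of 21.4% each, near the 18.7% and 19.8% of all genes. Without the animals whose libraries stood apart, or those with a library under 10 M, 1 fell. RETN, resistin, was at 0.45 ± 0.11 and RARRES2, the attractant chemerin, at -0.22 ± 0.04.

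Fatty acid synthesis genes had the lowest median of the 55 lists, -0.21, which was -0.45 without the animal block and -0.03 in batch 1 alone. Per animal, the mean change of the list had a median of -0.34 in batch 1 and -0.17 in batch 2. Of 18 members, 1 rose and 7 fell, or 0 and 9 without the block. FASN, the fatty acid synthase, had 78.1 to 40747 CPM (median 2957) on LCLF and 79 to 26611 CPM (median 1674) on HCHF. Levels differed far more between animals than between the diets' medians, and the ranges overlapped almost throughout. It fell by 0.71 ± 0.20 (adjusted p = 0.00288 by edgeR), lower in 64 animals, with a change of -0.19 in batch 1 and -0.78 in batch 2. MLXIPL, the carbohydrate-responsive transcription factor ChREBP, had 58.8 to 1015 CPM (median 351) on LCLF and 46.1 to 937 CPM (median 245) on HCHF and fell by 0.52 ± 0.09 in 69 animals. PC, pyruvate carboxylase, fell by 0.57 ± 0.12, and ACACB, the mitochondrial acetyl-CoA carboxylase, by 0.42 ± 0.09.

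Of the other members, SLC25A1, FADS1 and FADS3, named after their values were seen, fell by 0.41 ± 0.12, 0.20 ± 0.08 and 0.10 ± 0.04, FADS1 close to the threshold (adjusted p = 0.0467). Several well-known lipogenic genes did not pass. SCD, the desaturase, had 3.09 to 22289.5 CPM (median 333) on LCLF and 3.51 to 11290.0 CPM (median 219) on HCHF, with a change of -0.64 ± 0.37 (adjusted p = 0.159), and passed without the animal block. ELOVL6, an elongase, was at -0.42 ± 0.31 (adjusted p = 0.301) and passed by limma-voom. ACLY and ACACA, which supply the building blocks, stood at -0.09 ± 0.14 and -0.08 ± 0.14, though without the animal block ACLY was at -0.59 and passed. SREBF1, a transcription factor that drives this pathway, was the member that rose, 0.36 ± 0.12, higher in 62 animals. Without the animal block it did not pass (adjusted p = 0.664).

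The cholesterol synthesis list had 0 genes that rose and 7 that fell, of 19 tested (median -0.06). TM7SF2, a sterol reductase, had 22.7 to 197 CPM (median 73.3) on LCLF and 13.1 to 262 CPM (median 44.2) on HCHF and fell by 0.71 ± 0.09 in 77 animals. MVD, a mevalonate enzyme, fell by 0.17 ± 0.04 and SC5D, a sterol desaturase, by 0.28 ± 0.10. The regulated enzyme gene SQLE (0.01 ± 0.08) and the sterol sensor gene INSIG1 (-0.17 ± 0.07, adjusted p = 0.0591) did not pass. With the libraries left out by quality control 3 members of the list fell, and without the animals that had a library under 10 M, 4. Of 12 genes of sterol sensing and lipoprotein uptake, 2 rose and 1 fell, shares of 16.7% and 8.33% that lie below those of all genes. LRP1, a lipoprotein receptor, was at 0.23 ± 0.04 and NPC2, a lysosomal cholesterol carrier, at 0.17 ± 0.04.

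Of 21 lipolysis and droplet genes, 1 rose and 6 fell (median -0.03), a share of 28.6% that fell against 19.8% of all genes. The median was 0.007 without the animals whose libraries stood apart, and also without those with a library under 10 M. ADRB3, the adrenergic receptor that starts lipolysis, fell by 0.86 ± 0.16 from low levels of 0.0561 to 16.2 CPM (median 1.82) on LCLF, with 0 to 7.87 CPM (median 0.685) on HCHF, and was lower in 69 animals. PNPLA2, the triglyceride lipase, fell by 0.21 ± 0.08, short of the threshold without the animals whose libraries stood apart (adjusted p = 0.0755), and the hormone-sensitive lipase gene LIPE was at 0.06 ± 0.11 (adjusted p = 0.715). PLIN3, a droplet coat protein of many cell types, rose by 0.22 ± 0.04.

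The triglyceride synthesis list had 0 genes that rose and 3 that fell, of 13 tested, a share of 23.1% that fell, near the 19.8% of all genes. In it 1 fell without the animal block and 1 without the animals that had a library under 10 M. The phosphatidate phosphatase gene LPIN1 was at -0.39 ± 0.09. In the uptake list 1 of 11 tested genes rose and 3 fell, shares of 9.09% and 27.3% beside 18.7% and 19.8% of all genes. SLC27A1, a fatty acid transporter, fell by 0.30 ± 0.06, GPIHBP1, which holds lipoprotein lipase on capillaries, fell by 0.25 ± 0.07, and VLDLR, a lipoprotein receptor, rose by 0.26 ± 0.07, while the fatty acid receptor gene CD36 was at 0.03 ± 0.06. The thermogenic list had 0 genes that rose and 3 that fell, of 9 tested, or 1 that fell without the animal block, PRDM16 at -0.22 ± 0.08 and CKB at -0.25 ± 0.07 beside CIDEA. UCP1, their defining gene, had no count in 179 of 190 libraries and was not tested.

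For fatty acid oxidation 2 of 26 tested genes rose and 8 fell (median -0.07), with the thiolase gene ACAA1 at -0.14 ± 0.03 and HADH at -0.21 ± 0.07 falling, and the carnitine carrier gene SLC25A20 (0.10 ± 0.03) and EHHADH (0.15 ± 0.06) rising. For oxidative phosphorylation 0 of 24 tested genes rose and 5 fell, a share of 20.8% that fell, near the 19.8% of all genes. Without the animal block 3 genes of fatty acid oxidation and 0 of oxidative phosphorylation fell, and with the libraries left out by quality control 1 and 0. In oxidative phosphorylation 3 fell without the animals whose libraries stood apart and 2 without those with a library under 10 M. For the tricarboxylic acid cycle 1 of 16 tested genes rose and 4 fell, a share of 25%, or 2 fell without the animal block, IDH2 at -0.27 ± 0.09 and OGDH at 0.13 ± 0.04. For breakdown of branched-chain amino acids 1 of 21 tested genes rose and 8 fell, or 5 without the animal block, 5 without the animals that had a library under 10 M, 5 with no filter on low counts and 3 with the libraries left out by quality control. Of these, ACAD8 was at -0.40 ± 0.04 and ALDH6A1 at -0.31 ± 0.06. BCAT1, the cytosolic transaminase of this pathway, rose by 0.43 ± 0.06 and was higher in 76 animals.

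In glucose metabolism 8 of 22 tested genes rose and 3 fell, or 1 and 1 without the animal block and 5 rose with the libraries left out by quality control. Without the animals that had a library under 10 M, and in batch 2 alone, 1 fell. PKM, the pyruvate kinase of most tissues, rose by 0.16 ± 0.03. SLC2A4, the insulin-responsive glucose transporter GLUT4, fell by 0.24 ± 0.09, and without the animals that had a library under 10 M it did not pass (adjusted p = 0.0957). PFKFB3, which stimulates glycolysis, fell by 0.36 ± 0.11. Among 20 insulin signalling genes 2 rose and 3 fell, so shares of 10% and 15% that lie below those of all genes, and 1 fell without the animal block and 5 in batch 2 alone. GRB14, an inhibitor of the insulin receptor, rose by 0.46 ± 0.13, the receptor gene INSR fell by 0.16 ± 0.06, and IRS1 (-0.09 ± 0.05, adjusted p = 0.203) and IRS2 (-0.08 ± 0.07, adjusted p = 0.347) did not pass.

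Among vessel markers, those of blood vessels fell and those of lymphatics rose where they passed. Of 16 blood vessel endothelial markers, 0 rose and 9 fell (median -0.12), and the mean change was above 0 in 30 of 95 animals. EGFL7, a secreted endothelial protein, fell by 0.41 ± 0.05, ESAM, a junction molecule, by 0.19 ± 0.04, and PECAM1 did not pass (-0.05 ± 0.04). Of 7 lymphatic markers, 5 rose and 0 fell (median 0.29), with MMRN1 at 0.40 ± 0.08, PDPN at 0.34 ± 0.06 and the hyaluronan receptor gene LYVE1, which macrophages also express, at 0.35 ± 0.07. Per animal, the mean change of the lymphatic list had a median of -0.12 in batch 1 and 0.23 in batch 2. Of 13 smooth muscle and pericyte markers, 1 rose and 1 fell.

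Clock genes moved in opposite directions. Of 18 members, 4 rose and 8 fell, or 5 fell without the animal block. PER1, a repressor of the clock, had 95 to 549 CPM (median 278) on LCLF and 89.9 to 547 CPM (median 227) on HCHF and fell by 0.31 ± 0.06, lower in 66 animals. CRY2 fell by 0.16 ± 0.04. ARNTL, the activator BMAL1, rose by 0.34 ± 0.08, its partner NPAS2 by 0.16 ± 0.06 (adjusted p = 0.0534 without the animals whose libraries stood apart), CRY1 by 0.16 ± 0.04 and BHLHE41 by 0.28 ± 0.07. The time of day of the biopsies is not given in the labels, and its part was not tested. The glucocorticoid-responsive list had 2 genes that rose and 6 that fell, of 15 tested, or 3 fell without the animal block. FKBP5, a co-chaperone of the glucocorticoid receptor, fell by 0.40 ± 0.07, KLF15 by 0.34 ± 0.06, and HSD11B1, which regenerates active glucocorticoid, rose by 0.60 ± 0.10.

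**Figure D3:**
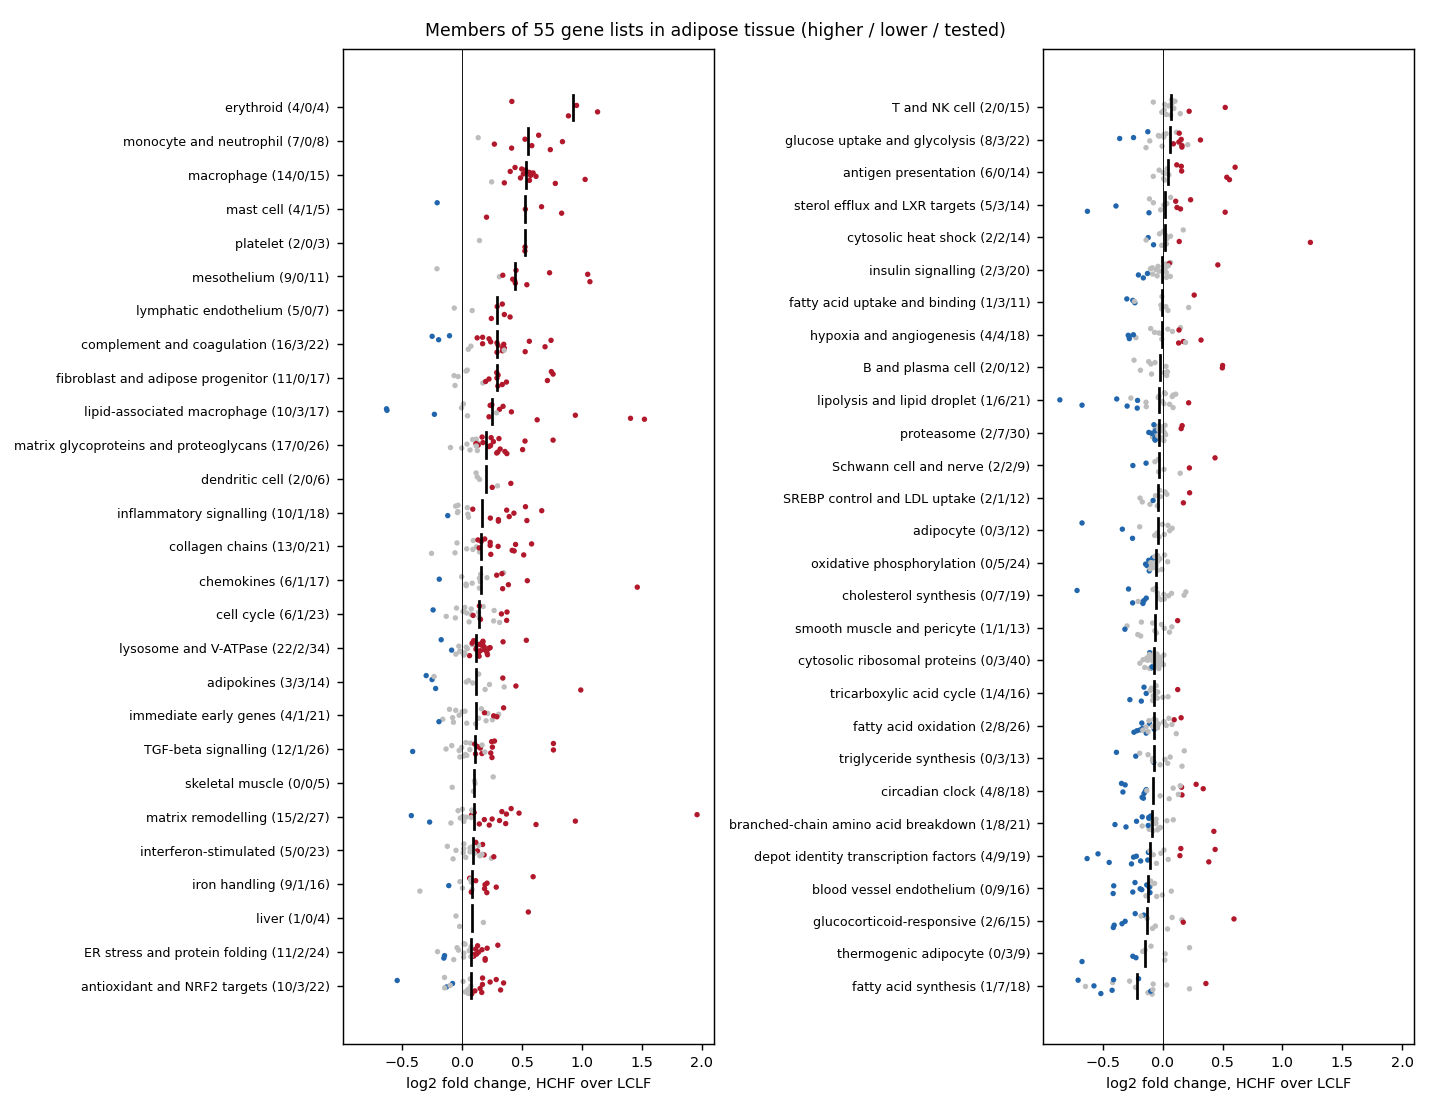
Each row is 1 of 55 gene lists with its counts of members that rose, fell and were tested, and each point is a member at its log2 fold change of HCHF over LCLF, red where it rose, blue where it fell and grey where it did not pass. Black bars are list medians, from 0.92 for red cell markers down to -0.21 for fatty acid synthesis.

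Several of the largest changes lay outside the lists' main themes. BAALC was the most regular of the 15 largest rises, with 0.969 to 22.1 CPM (median 2.97) on LCLF and 0.917 to 60 CPM (median 9.18) on HCHF. Most HCHF libraries lay above the LCLF median, and the rise of 1.30 ± 0.12 (adjusted p = 1.33e-14 by edgeR) was seen in 82 of 95 animals. CRYAB, a small heat shock chaperone, had 21.4 to 3974 CPM (median 129.9) on LCLF and 32.3 to 8998 CPM (median 483) on HCHF and rose by 1.23 ± 0.19 in 75 animals. CDH1, the epithelial adhesion protein E-cadherin, rose by 0.95 ± 0.12 in 79 animals, ABCB4, a phospholipid transporter, by 0.90 ± 0.13 in 71, and MOXD1, a copper-dependent monooxygenase, by 0.84 ± 0.11 in 76.

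Among called, fully named genes that averaged 5 CPM or more and were lower in 70% of animals or more, PDZD7, a scaffold protein known from hair cells, fell most. It had 16.8 to 558 CPM (median 182) on LCLF and 6.15 to 706 CPM (median 83.1) on HCHF, although the highest library of all was on HCHF. It fell by 1.20 ± 0.14 in 80 animals. CRACR2B, a regulator of calcium entry, had 19.3 to 384 CPM (median 111) on LCLF and 15.7 to 216 CPM (median 59.2) on HCHF and fell by 1.02 ± 0.10 (adjusted p = 6.49e-14 by edgeR) in 86 of 95 animals. The glycogen and glycolysis regulators PHKG1, a catalytic subunit of phosphorylase kinase, and PFKFB1 fell by 0.75 ± 0.09 and 0.88 ± 0.16. HPSE2, a relative of heparanase, fell by 0.73 ± 0.08 in 80 animals, and ACSF2, an acyl-CoA synthetase, by 0.68 ± 0.09 in 79. PCK2, the mitochondrial enzyme that makes phosphoenolpyruvate, fell by 0.62 ± 0.09 in 74 animals.

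Receptors and regulators completed the 15 largest falls under that rule. ACVR1C, an activin receptor that restrains lipolysis in fat cells, had 28.7 to 673 CPM (median 229) on LCLF and 34.3 to 561 CPM (median 134) on HCHF and fell by 0.64 ± 0.10 in 76 animals. TSHR, the thyrotropin receptor, which fat cells carry, fell by 0.60 ± 0.10. The ubiquitin ligase gene RNF165 fell by 0.95 ± 0.14, with a mean change of -0.31 in batch 1 and -1.03 in batch 2, and the transcription factor gene SALL1 by 0.63 ± 0.13.

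To see which changes differed from those in other tissues of the same animals, the within-animal changes of log2 CPM in adipose tissue were set against those in liver (82 animals) and muscle (91 animals) by limma. The adipose change differed from the liver change in 5321 of 14102 genes (37.7%) and from the muscle change in 1711 of 13190 (13%). Against liver, 33 of 58 named genes differed. The named genes include those picked for the largest changes in adipose tissue, so their share cannot be set against that of all genes. The sterol synthesis gene SQLE was at -1.30 in liver and -0.00 in adipose tissue (difference 1.3 ± 0.168). The macrophage gene CHIT1 changed by 3.43 there and 1.46 in adipose tissue (difference -1.97 ± 0.319, adjusted p = 4.03e-07 by limma), and CD163, TREM2 and MSR1 also had larger changes in liver. SPP1 went the other way, at 0.08 in liver and 1.37 in adipose tissue (difference 1.29 ± 0.231), above the liver change in 58 of 82 animals. FASN changed by -0.21 in liver and -0.80 in adipose tissue (difference -0.594 ± 0.185).

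Against muscle, 19 of 51 named genes differed, with the same limit on the share. CRYAB was at -0.08 in muscle and 1.28 in adipose tissue (difference 1.36 ± 0.173, adjusted p = 1.72e-08 by limma), higher in adipose tissue in 72 of 91 animals. MLXIPL was at 0.21 and -0.47 (difference -0.684 ± 0.138), and the red cell gene HBB at -0.16 and 0.96 (difference 1.12 ± 0.274). CRACR2B, ACVR1C, ACSF2, PCK2, PFKFB1, MLXIPL and FASN fell further in adipose tissue than the change seen in either other tissue. Of these, CRACR2B, ACVR1C, ACSF2, PCK2 and PFKFB1 had been picked for their large falls in adipose tissue, which favours such a difference. Libraries of the same animal share its batch.

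**Figure D4:**
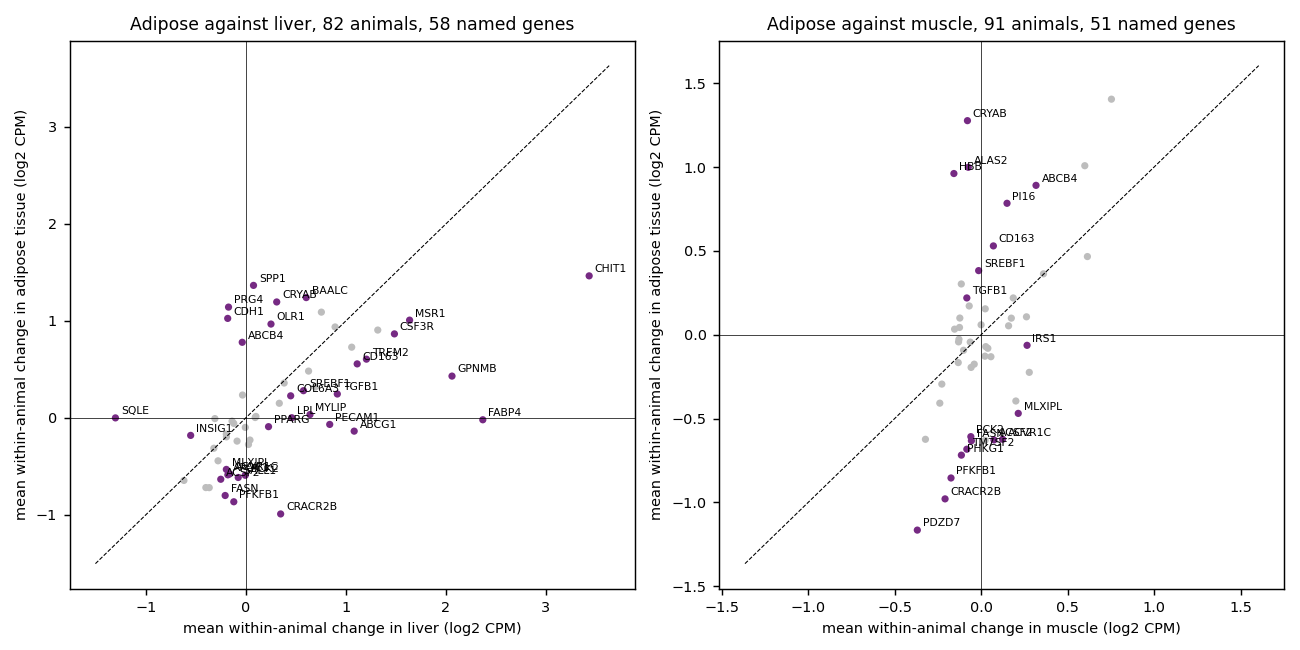
Each point is a named gene at its mean within-animal change of log2 CPM in liver (left, 82 animals) or muscle (right, 91 animals) on the x axis and in adipose tissue on the y axis, with equal changes on the dashed line. Purple labelled genes differed between the tissues, such as CHIT1 below the line and SPP1 above it against liver, and CRYAB above it against muscle.

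Across animals the changes of 12 chosen gene pairs were compared, with p-values from permutation tests adjusted over the 12. Animals whose leptin rose more tended to have a rise or a smaller fall of adiponectin (LEP and ADIPOQ, r = 0.58, rho = 0.54, n = 95, adjusted permutation p = 6e-05). Its unadjusted permutation p was 1e-05, the smallest that 100000 resamples can give. The r was 0.72 in batch 1, 0.56 in batch 2 and 0.52 without the 2 animals farthest from the median of LEP. SPP1 and the scavenger receptor MSR1 changed together (r = 0.53, rho = 0.52, adjusted permutation p = 6e-05, r = 0.50 without the 2 farthest), with r = 0.41 in batch 1 and 0.54 in batch 2. SPP1 and the collagen gene COL1A1 did so too (r = 0.38, rho = 0.40, adjusted permutation p = 0.00048, r = 0.39 without the 2 farthest, 0.22 and 0.41 within the batches).

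FASN changed against both. Its r with SPP1 was -0.34 (rho = -0.35, adjusted permutation p = 0.0018, -0.35 without the 2 farthest), and -0.55 and -0.29 in batches 1 and 2. With COL1A1 it was -0.28 (rho = -0.23, adjusted permutation p = 0.0104, -0.28 without the 2 farthest, -0.35 and -0.26 within the batches). LEP and SPP1 had r = 0.27 (rho = 0.28, adjusted permutation p = 0.0129, 0.27 without the 2 farthest, 0.43 and 0.24 within the batches). LEP and FASN had r = 0.22 (adjusted permutation p = 0.0466), but rho = 0.17 (adjusted permutation p = 0.123) and r = 0.18 without the 2 farthest, 0.14 and 0.25 within the batches. In LEP and COL1A1 the relation missed the threshold (r = -0.21, rho = -0.17, adjusted permutation p = 0.0548, -0.15 without the 2 farthest, -0.09 and -0.24 within the batches).

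The mesothelial gene BNC1 changed with COL1A1 (r = 0.29, rho = 0.25, adjusted permutation p = 0.0095, 0.32 without the 2 farthest, 0.47 and 0.27 within the batches) but had r = -0.02 with SPP1 (rho = -0.03, adjusted permutation p = 0.85, 0.02 without the 2 farthest, -0.16 and 0.02 within the batches). The red cell gene HBB had r = 0.19 with SPP1 (rho = 0.16, adjusted permutation p = 0.0707, 0.18 without the 2 farthest, 0.27 and 0.17 within the batches) and -0.19 with COL1A1 (rho = -0.18, adjusted permutation p = 0.0707, -0.12 without the 2 farthest, -0.14 and -0.22 within the batches), neither past the threshold. All libraries share the scaling by depth.

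**Figure D5:**
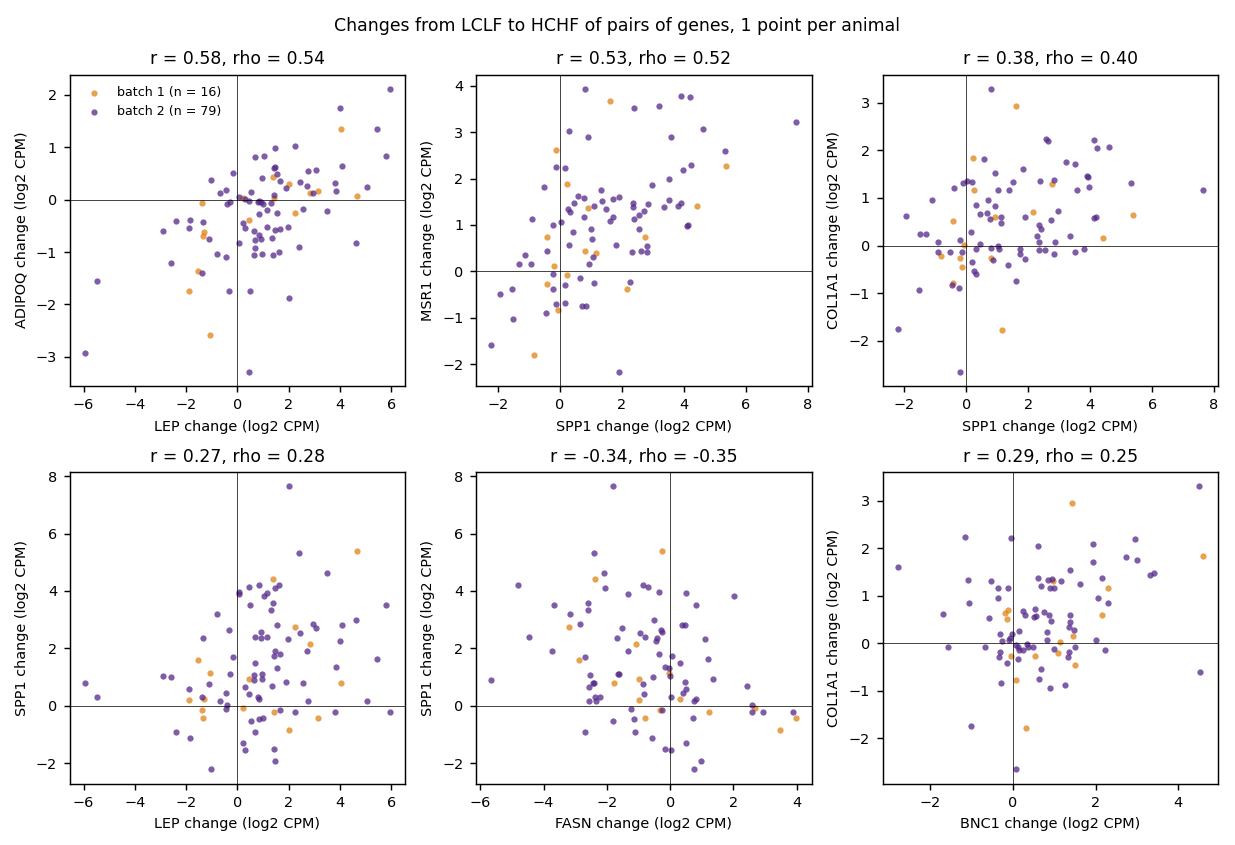
Each point is 1 of 95 animals at its changes of log2 CPM from LCLF to HCHF for a pair of genes, orange for batch 1 (16 animals) and purple for batch 2 (79 animals). The points of LEP with ADIPOQ and of SPP1 with MSR1 follow a line most closely, and those of FASN with SPP1 slope downward.

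The changes were also compared between the sequencing batches. A difference of the change between batches passed in 1 of 16827 genes (0.00594%, 772 at an unadjusted p under 0.05 by limma), and in 0 of 71 named genes, of which 58 had the same sign in each batch. That gene, named after its value was seen, was SPATA1, with a mean change of 0.88 in batch 1 and 0.02 in batch 2. With the 16 pairs of batch 1 alone, limma-voom called 0 genes higher and 1 lower (1541 at an unadjusted p under 0.05), namely HEYL, a transcription factor gene, at -0.98, also named after its value was seen. The 79 pairs of batch 2 alone gave 2907 higher and 3245 lower, also by limma-voom.

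Some named genes lost their call under other settings beyond those given above. Without the animal block these were ABCA1, ADIPOQ, CCL2, CD1C, CD3G, CKB, EHHADH, FABP5, FCER1A, IDH2, INSR, NPAS2, NR2F1, OGDH, PNPLA2, PRDM16, SERPINA1, SLC25A20, SLC2A4 and VWF. With the adipose libraries left out by the authors' quality control they were ACAA1, HOXC4, INSR, NR2F1, SC5D, VLDLR and WT1. With batch 2 alone, fitted by limma-voom, they were CCL2, EHHADH, NPAS2, PFKFB3, PNPLA2 and PRDM16, of which CCL2 was also lost by limma-voom on all 95 pairs. EHHADH and PNPLA2 also lost it with no filter on low counts, and ADIPOQ, FABP5 and PNPLA2 without the animals that had a library under 10 M. Of 206 genes named by the rule and called with all 95 pairs, 0 passed in the 16 pairs of batch 1 alone by limma-voom.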

How the data were processed

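Adipose, liver and muscle libraries were grouped by the tissue, animal and diet labels. Per the submitters' processing notes, FastQC, STAR 2.7.7a and featureCounts were used. The sources used here do not state settings, genome build, annotation, use of strand or the criteria of quality control. Values of antisense partners and of close copies (globin, IFIT and keratin genes, for example) are therefore uncertain. The deposited values are raw counts, made by the authors without normalization, for 34178 genes in tables of 588 and 570 libraries, which were identical where they overlap. Of the gene names, 99% match a RefSeq symbol (assembly Panubis1.0), used for names only.

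Per the labels' protocols, batch 1 (16 animals) was unstranded and single-end and batch 2 (83 animals) stranded and paired-end, with reads of 50 bases, and an animal's samples shared all batches. Batch membership of single animals is not labelled. In a principal component analysis of each animal's mean expression, the first axis (20.86% of the variance) split 16 from 83 with a gap of 53.15, the next largest being 4.531, and these were taken as the batches.

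The 190 paired libraries (6.507 to 36.8 M counts) were scaled by TMM, filtered by filterByExpr (minimum count 10), and tested by edgeR 4.0.16 (R 4.3.3) with quasi-likelihood, the animal as a block, 1 common dispersion from 3000 genes, and Benjamini-Hochberg adjustment at 0.05 over all genes tested. SEs were derived from each gene's F statistic and log2 fold change. Differences between tissues and between batches used limma 3.58.1 with a trend, fitted to each animal's difference in log2 CPM (with a prior count of 2). Correlations used 100000 permutations, two-sided. On simulated data of 1500 genes, 200 of them changed, the share recovered was 75% at a change of 0.2 and 100% at 0.5, and 2.235% of calls were false. The simulation gave every gene the same dispersion. Its shares therefore do not hold for genes that vary more within animals, such as SCD, which did not pass at -0.64 ± 0.37.

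Pairing follows from the animal label. As a check, an animal's 2 libraries correlated in their deviations from the group means at a median of 0.495, against -0.008 for different animals, and over 0.1 in 91 of 95 pairs. A library stood apart where its median correlation with the others of its diet and batch lay over 3 interquartile ranges below the lower quartile.

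The 15 largest rises and falls were named among called genes that had a full symbol, averaged 5 CPM or more and moved in the same direction in at least 70% of animals (609 and 633 qualified), together with 46 anchor genes (44 tested), in each of 55 lists the 3 genes of smallest p and members called against the majority, and 5 genes per tissue difference. A few genes are not reported here and stay in the fits and list counts. Of 1046 list entries, 978 were in the table and 927 tested, 3 through an older name. The comparison, the lists and the rule were chosen with earlier results of these data known. Alternatives were RLE size factors, limma-voom, DESeq2 1.42.0, no animal block, other filters, other sets of animals and another prior count. Each batch alone was fitted by limma-voom.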

Additional observations from a re-analysis of the deposited data

Results flagged for a closer look

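These are the named genes whose adipose change differed most clearly from that in another tissue of the same animals, 5 per tissue by the smallest p in limma's test of the difference itself. CRACR2B, CRYAB, PHKG1, ACVR1C and TM7SF2 had been named for their large changes in adipose tissue, which favours such a difference. Against liver (82 animals) the adipose change minus the liver change was -1.63 for GPNMB, -0.907 for PECAM1, -2.39 for FABP4, -1.34 for CRACR2B and -1.22 for ABCG1. Of these, FABP4 changed by 2.37 in liver and -0.02 in adipose tissue, GPNMB by 2.06 and 0.43, ABCG1 by 1.08 and -0.14, and PECAM1 by 0.84 and -0.07. CRACR2B was the gene among them with the larger change in adipose tissue, -0.99 against 0.35. The adipose change was the lower in 76 animals for FABP4, 75 for GPNMB, 70 for ABCG1, 72 for PECAM1 and 74 for CRACR2B.

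Against muscle (91 animals) the adipose change minus the muscle change was 1.36 for CRYAB, -0.77 for CRACR2B, -0.604 for PHKG1, -0.748 for ACVR1C and -0.6 for TM7SF2. The changes in muscle itself were -0.08 for CRYAB, -0.21 for CRACR2B, -0.11 for PHKG1, 0.12 for ACVR1C and -0.08 for TM7SF2, nearer 0 than in adipose tissue. CRYAB was higher in adipose tissue in 72 animals, and the others lower in 72, 71, 69 and 68, in the order above.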

How the results depend on the processing

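RLE size factors, limma-voom, a filter at a mean of 1 CPM, batch 2 alone, the libraries left out by quality control, and leaving out animals whose libraries stood apart or had under 10 M counts kept the counts of higher and lower genes within 1.5 times. No replicate block (edgeR with the diet alone, so that the pairing by animal is not used) gave 1872 higher and 1826 lower, and DESeq2 with no replicate block 1995 and 1857. Of the calls with the block 3645 (56.2%) were shared without it. No filter on low counts gave 551 higher and 283 lower by at least 0.5. Batch 1 alone gave 0 higher and 1 lower, and 0 and 1 by at least 0.5, from 16 pairs. A prior count of 0.5 gave 4 genes that differed between batches. Of 206 named genes with a call, 41 lost it without the block, 39 by DESeq2, 16 with the libraries left out by quality control, 10 in batch 2 alone by limma-voom and 9 or fewer under the others, except batch 1 alone. In batch 1 alone by limma-voom, 199 lost it and 5 had the other sign, CHI3L1 (0.12), PFKM (-0.017), RNF165 (0.11), SDHA (0.0055) and SLC25A20 (-0.022). That fit differs from the main one in both method and animals. The unweighted mean change of RNF165 in batch 1 was -0.31, the same sign as with all pairs. The muscle genes MYLPF (-1.70) and TTN (-1.56) turned sign without the block, where they were called, from 0.26 and 0.11, not called. The cause of these shifts was not tested. A change that did not pass was not detectable at this depth and number of animals, and is not shown to be absent.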

Other observations

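Of 24 tested genes of protein folding and stress in the endoplasmic reticulum, 11 rose and 2 fell (median 0.07), with the chaperone gene CANX at 0.13 ± 0.02, the disulfide isomerase gene PDIA6 at 0.21 ± 0.04 and the stress sensor gene ATF6 at 0.11 ± 0.02. The members that fell were DDIT3 (-0.15 ± 0.03) and ASNS (-0.15 ± 0.04). Of 22 antioxidant genes, 10 rose and 3 fell. NQO1, a quinone reductase, rose by 0.32 ± 0.06, while GPX3, a secreted glutathione peroxidase abundant in fat, fell by 0.54 ± 0.14 and was lower in 61 of 95 animals. Of 16 iron genes, 9 rose and 1 fell, or 4 rose without the animal block, with the ferritin cargo receptor gene NCOA4 at 0.08 ± 0.02 and the phagosome iron transporter gene SLC11A1 at 0.19 ± 0.05. In the cytosolic heat shock list 2 of 14 tested genes rose and 2 fell, shares of 14.3% each that lie below those of all genes, with DNAJB1 at -0.12 ± 0.04 beside the rise of CRYAB.

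Of 18 hypoxia and angiogenesis genes, 4 rose and 4 fell, shares of 22.2% each, near the 18.7% and 19.8% of all genes. With the libraries left out by quality control 2 rose. VEGFA, the vessel growth factor, was at -0.29 ± 0.05, PDK1 at -0.28 ± 0.06 and the carbonic anhydrase gene CA9 at 0.32 ± 0.07. In the cell cycle list 6 of 23 tested genes rose and 1 fell, a share of risers of 26.1% against 18.7% of all genes. TYMS, which makes thymidylate, was at 0.33 ± 0.08. Among 21 immediate early genes 4 rose and 1 fell, a share of risers of 19.0%, near the 18.7% of all genes. JUN was at 0.26 ± 0.07 and KLF2 at -0.19 ± 0.06, and 9 rose without the animal block, where FOS (0.11 ± 0.25 with it) was at 0.81 and passed. Of 40 ribosomal protein genes 0 rose and 3 fell, and of 30 proteasome genes 2 rose and 7 fell, shares that lie near or below those of all genes apart from 23.3% for the proteasome genes that fell. Without the animal block 0 of the ribosomal and 3 of the proteasome genes fell, in batch 2 alone 5 of the ribosomal genes, and 3 of the proteasome genes with the libraries left out by quality control and 4 without the animals that had a library under 10 M. Of 3 platelet markers 2 rose and 0 fell, PPBP at 0.52 ± 0.18 and TUBB1 at 0.52 ± 0.13. Of 9 nerve markers tested, 2 rose and 2 fell, shares of 22.2% each, near those of all genes, with NCAM1 at 0.44 ± 0.13.

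The authors' quality control left out 3 adipose HCHF libraries, which enter the report only where it gives values with the libraries left out by quality control. In 2 of them 8 liver markers summed to 189861 and 184691 CPM, within the range of the liver libraries (40552 to 259787 CPM) and far above the 2681 CPM of the highest paired adipose library, and 12 adipocyte markers to 2535 and 124 CPM. The third had 184 CPM of liver markers and 26404 CPM of adipocyte markers.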
